A study of Mus musculus with 18 samples.

Results

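The mRNAs of 73 mitochondrial ribosomal protein genes were followed through a separation of brain RNA by poly(A) tail length. Members were all genes whose symbol is Mrpl or Mrps followed by a number and that had at least 1 probe set assigned to a single gene. They were 73 of the 11974 genes tested on the array, with 129 probe sets. Of the 73, 48 code for proteins of the large subunit and 24 for proteins of the small subunit, and Mrps36 is now placed outside the ribosome, in the 2-oxoglutarate dehydrogenase complex. Cortex and striatum, dissected together, came from 3 TgCPEB4∆4 mice and 3 CTRL mice, all 6 weeks old. CPEB4 binds cytoplasmic polyadenylation elements of mRNAs and alters their tail length, and the transgene is named for the form that lacks exon 4 (∆4). The labels name no promoter of the transgene, no strain and no litter. Each mouse gave total RNA (INPUT) and a pair of fractions from a poly(U) column, which holds RNA by its tail. ELUTED RNA left the column at 90% formamide and is enriched for long tails, and WASH RNA left at 25% formamide and is enriched for short tails.

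The mitochondrial ribosome makes the few proteins that mitochondrial DNA encodes, all of them core parts of the respiratory chain and ATP synthase. Its RNAs come from mitochondrial DNA, but every protein in it is encoded in the nucleus, made in the cytosol and imported. Some of these proteins have a counterpart in the bacterial ribosome, and others exist only in mitochondria. In a tissue with as high an energy demand as brain, loss of single members causes mitochondrial disease in humans, as known for MRPS16, MRPS22, MRPS34, MRPL3 and MRPL44. Cytoplasmic mRNAs with long tails bind more poly(A)-binding protein, and short, abundant housekeeping mRNAs are known to carry rather short tails.

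The promoters of these genes are shown because nuclear genes of mitochondria share a small set of promoter motifs. RefSeq promoters (build GRCm38.p6, 250 bases before to 50 bases after the start of the gene, 300 in all) were found for 65 of the 73 genes, 71 promoters in total. CCGGAAG, the core letters of ETS family sites, occurred on either strand in 23 of the 71 (32.4%), against 8.86% of all 32851 promoters in the table. GCGCANGCG, the core letters of NRF1 sites, occurred in 14 of 71 (19.7%), against 6.25% of all promoters. AAGATGGCG, known from YY1 sites, occurred in 8 of 71 (11.3%), against 1.40% of all promoters. At least 1 of the 3 motifs was present in 53.5% of member promoters and in 14.8% of all promoters, and the median GC content was 59.0% and 52.7%. Such a match is a description of letters, not of a bound site. Of the 10 members with the lowest and highest tail ratios in CTRL mice described below, 8 had a promoter in the table and 4 of these held a match. Those 4 are printed 5′ to 3′ along the gene, with the matches in capitals. In Mrps33 (chr6:39810887-39811186, minus strand) the ETS letters lie on the opposite strand, in Mrpl30 (chr1:37890227-37890526, plus strand) 2 NRF1 matches lie on opposite strands, in Mrpl18 (chr17:12916042-12916341, minus strand) the ETS letters lie on the gene's strand, and in Mrps9 (chr1:42850983-42851282, plus strand) the NRF1 match lies on the opposite strand.
Mrps33: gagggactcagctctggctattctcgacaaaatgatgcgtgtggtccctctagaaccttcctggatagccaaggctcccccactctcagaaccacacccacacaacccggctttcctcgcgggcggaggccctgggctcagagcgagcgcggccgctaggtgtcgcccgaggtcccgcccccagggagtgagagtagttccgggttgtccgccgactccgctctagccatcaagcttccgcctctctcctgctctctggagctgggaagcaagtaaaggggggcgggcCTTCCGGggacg
Mrpl30: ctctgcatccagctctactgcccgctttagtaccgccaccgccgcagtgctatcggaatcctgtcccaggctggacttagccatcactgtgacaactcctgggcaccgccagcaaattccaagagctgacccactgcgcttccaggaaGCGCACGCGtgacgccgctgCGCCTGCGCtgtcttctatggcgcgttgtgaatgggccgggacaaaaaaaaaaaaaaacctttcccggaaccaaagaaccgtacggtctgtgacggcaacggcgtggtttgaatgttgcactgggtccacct
Mrpl18: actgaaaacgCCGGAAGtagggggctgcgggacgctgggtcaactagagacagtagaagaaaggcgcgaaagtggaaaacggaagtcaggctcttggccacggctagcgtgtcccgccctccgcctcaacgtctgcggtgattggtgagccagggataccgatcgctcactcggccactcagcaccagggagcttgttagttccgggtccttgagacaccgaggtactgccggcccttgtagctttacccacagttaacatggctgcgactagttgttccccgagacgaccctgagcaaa
Mrps9: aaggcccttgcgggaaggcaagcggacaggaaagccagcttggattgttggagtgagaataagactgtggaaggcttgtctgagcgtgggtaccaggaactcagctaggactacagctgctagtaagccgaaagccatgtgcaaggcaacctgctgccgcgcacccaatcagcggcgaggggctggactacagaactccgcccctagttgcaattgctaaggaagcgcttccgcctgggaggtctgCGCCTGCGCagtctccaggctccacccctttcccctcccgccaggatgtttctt

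Each of the 18 arrays gave 1 log2 value per probe set, and a gene was represented by its tested probe set with the highest mean. Members were above the highest of 44 control probe sets for bacterial and tag sequences in all 73 genes on 16 arrays, in 71 genes on the ELUTED array of CTRL mouse 3 and in 65 on that of CTRL mouse 1. The last array stood apart: its SD over all probe sets was 1.70 (the other arrays had 1.77 to 2.00), and its 3′ minus 5′ difference of the Gapdh control was 0.15 (the other arrays had -0.23 to -0.12). That of the Actb control went the other way, at -1.08 (the other arrays had -0.96 to -0.47). Against another set, the 23 control probe sets of set GC content, 48 members were above them on the ELUTED array of CTRL mouse 1 and 66 to 68 on the INPUT arrays. On these arrays the highest GC control exceeded the highest bacterial or tag control, but on several others it lay below. The best Cpeb4 probe set read 8.58, 8.55 and 7.99 in INPUT of TgCPEB4∆4 mice and 8.44, 8.36 and 8.30 in INPUT of CTRL mice (difference 0.01 ± 0.16, SE, adjusted p = 0.991), and the genotypes overlapped. Of the tissue's defining markers, 3 of 4 for cortical neurons and 4 of 4 for striatal neurons were above the controls on all 6 INPUT arrays, and Neurod6 was on none. Summed levels of 5 inflammation genes reached 8.83 to 13.0 in TgCPEB4∆4 mice, highest in mouse 1, against 8.66 to 8.76 in CTRL mice, and the summed levels of 5 microglial genes reached 11.2 to 12.6 against 11.03 to 11.10. Those of 5 astrocyte genes reached 13.29 to 14.06 against 13.26 to 13.31, and TgCPEB4∆4 mouse 3 lay within the CTRL range. Those of 5 meningeal and fibroblast genes reached 11.15 to 11.89 against 10.897 to 11.005. Those of 5 endothelial and mural genes were higher too, at 10.79 to 10.90 against 10.50 to 10.74. Those of the 4 striatal neuron genes were lower by a narrow margin, at 11.143 to 11.358 against 11.365 to 11.455. Of these 4, Drd1, Drd2 and Rgs9 had lower means in TgCPEB4∆4 mice (differences -0.18, -0.49 and -0.55). Ppp1r1b, of the highest level, had a higher mean (0.10). Astrocyte, cortical neuron and oligodendrocyte lists overlapped between genotypes. The part of these differences in the results below was not tested, and in bulk tissue fewer cells of a type and less RNA per cell cannot be told apart.

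The mitochondrial ribosomal protein mRNAs were less abundant in the long-tail than in the short-tail fraction in both genotypes. The tail ratio, ELUTED minus WASH within a mouse on the log2 scale, was below 0 in 71 of 73 genes in TgCPEB4∆4 mice and in 72 of 73 in CTRL mice. Over the 73 genes its median was -0.73, -0.70 and -0.64 in TgCPEB4∆4 mice 1, 2 and 3, and -1.45, -0.75 and -1.41 in CTRL mice 1, 2 and 3. CTRL mice 1 and 3 lay lowest, and CTRL mouse 2 lay next to the TgCPEB4∆4 mice. With limma and Benjamini-Hochberg adjustment over all 27022 probe sets (adjusted p under 0.05), 45 of 73 genes were lower in ELUTED in TgCPEB4∆4 mice and 0 were higher, where 20.5% of all genes were lower and 6.50% higher. In CTRL mice 63 of 73 were lower and 0 higher, where 39.9% of all genes were lower and 20.5% higher. The median over members was -0.70 in TgCPEB4∆4 and -1.24 in CTRL mice, beside -0.17 and -0.18 over all genes. Ranked among all genes within each mouse, the middle member stood at percentile 15.35, 18.84 and 7.01 in TgCPEB4∆4 mice and at percentile 18.49, 14.49 and 9.66 in CTRL mice. The count in TgCPEB4∆4 mice rests on few animals: without mouse 1 or without mouse 2 it was 0 of 73, with 0.00% of all genes lower. The medians were then -0.66 and -0.64, and 46 and 42 members had an unadjusted p under 0.05, a threshold at which all genes were not counted. Without mouse 3 the count was 30, with 14% of all genes lower. Normalizing the arrays by quantiles again, which moved the median of all probe sets by 0.12 and 0.15, gave 23 lower in TgCPEB4∆4 mice (8.10% of all genes), and 57 lower and 1 higher in CTRL mice (29.8% and 24.8% of all genes). Without CTRL mouse 1 the count in CTRL mice was 61, with 34.8% of all genes lower.

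**Figure D1:**
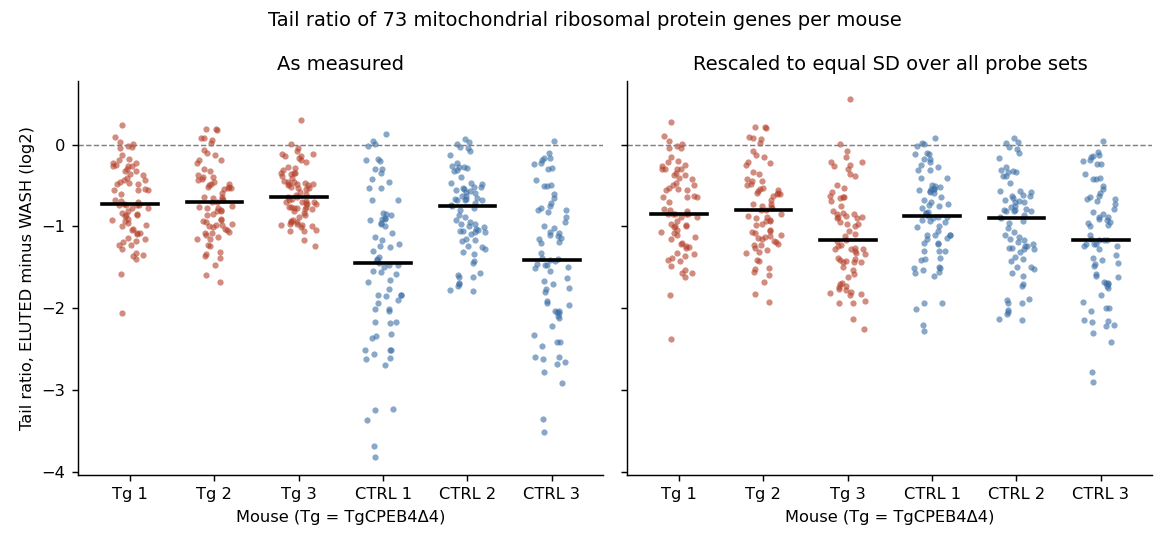
Tail ratio (ELUTED minus WASH, log2) of each of the 73 genes in each mouse, as measured on the left and rescaled to the same SD over all probe sets on the right, with TgCPEB4∆4 mice (Tg) left of CTRL mice and a bar at the median. As measured, the medians are -0.73, -0.70 and -0.64 in Tg mice and -1.45, -0.75 and -1.41 in CTRL mice, and after rescaling the medians of the genotypes overlap.

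The lowest mean tail ratios in CTRL mice were those of the small subunit proteins Mrps33 and Mrps14. Mrps33, a small subunit protein found only in mitochondria, read 7.94, 8.18 and 9.14 in ELUTED and 9.996, 9.77 and 10.06 in WASH of TgCPEB4∆4 mice. In CTRL mice it read 6.19, 8.18 and 6.36 in ELUTED and 10.005, 9.88 and 9.87 in WASH. ELUTED lay below WASH in every mouse, and CTRL mice 1 and 3 were far below the others in ELUTED while WASH levels overlapped between genotypes. The tail ratio of Mrps33 was -1.53 ± 0.57 in TgCPEB4∆4 mice (SD, n = 3, adjusted p = 0.0199) and -3.01 ± 1.14 in CTRL mice (adjusted p = 0.000701). Mrps14, counterpart of a bacterial protein of the small subunit head, read 7.75, 8.11 and 8.62 in ELUTED of TgCPEB4∆4 mice and 5.82, 7.63 and 6.09 in ELUTED of CTRL mice, against 9.34 to 9.59 and 9.36 to 9.51 in WASH. Its tail ratio was -1.31 ± 0.31 (adjusted p = 0.0215) and -2.92 ± 1.05 (adjusted p = 0.000565). Only 1 of the 3 ELUTED arrays of CTRL mice had Mrps14 above the bacterial and tag controls, and 2 of 3 had Mrps33, so those CTRL values lie at the lower end of what the arrays measured. The second tested probe set of Mrps14 was also lower in both genotypes, at -0.97 ± 0.28 (adjusted p = 0.0049) and -1.14 ± 0.13 (adjusted p = 0.0007). Its genotype difference was 0.17, against 1.62 for the representative, so the rank of Mrps14 in CTRL mice depends on the probe set.

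Proteins of the large subunit came next. Mrpl30, whose 2 NRF1 matches are printed above, read 8.24, 7.98 and 8.53 in ELUTED of TgCPEB4∆4 mice and 6.31, 7.48 and 6.78 in ELUTED of CTRL mice, with 8.93 to 9.58 and 9.09 to 9.56 in WASH. The genotypes did not overlap in ELUTED and overlapped in WASH. On the ELUTED array of CTRL mouse 1 Mrpl30 lay below the highest of the bacterial and tag controls, so the values drawn from that array rest on a signal at the controls' level. Its tail ratio was -0.95 ± 0.23 in TgCPEB4∆4 mice (adjusted p = 0.0299) and -2.49 ± 0.82 in CTRL mice (adjusted p = 0.000508). Its other tested probe set, of mean level 6.48, passed in neither (0.04 and 0.11). Mrpl18, a protein that binds the 5S rRNA in bacteria, had tail ratios of -1.08, -1.03 and -0.53 in TgCPEB4∆4 mice, which missed the threshold (adjusted p = 0.0940), and of -3.23, -1.04 and -2.92 in CTRL mice (adjusted p = 0.00123). Mrpl50, found only in mitochondria, was among the lowest in CTRL mice (-3.36, -0.74 and -2.59, adjusted p = 0.00227) but not in TgCPEB4∆4 mice (-0.55, -0.37 and -0.38, adjusted p = 0.412). Its second probe set was lower in both, at -0.83 ± 0.27 (adjusted p = 0.0481) and -1.68 ± 0.84 (adjusted p = 0.0016). For Mrpl18 and Mrpl50 CTRL mouse 2 lay apart from CTRL mice 1 and 3. Mrpl13, which has a bacterial counterpart, had -0.93, -1.16 and -0.99 in TgCPEB4∆4 mice (adjusted p = 0.00543) and -2.51, -1.78 and -2.33 in CTRL mice (adjusted p = 0.00045), so that the genotypes did not overlap.

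In TgCPEB4∆4 mice the order among the lowest was partly different. Behind Mrps33 came Mrps24, counterpart of bacterial uS3, at -1.39 ± 0.27 (adjusted p = 0.00328), and its tail ratio in CTRL mice was -1.77 ± 0.29 (adjusted p = 0.00045). The second probe set of Mrps24 was also lower in both, at -0.68 ± 0.06 and -0.98 ± 0.03 (adjusted p = 0.0065 and 0.0006). Mrpl57, found only in mitochondria, had -1.21 ± 0.17 (adjusted p = 0.00726) in TgCPEB4∆4 and -2.04 ± 0.62 (adjusted p = 0.000488) in CTRL mice. Mrpl36 and Mrpl34, counterparts of small proteins of the bacterial large subunit, had -1.20 ± 0.29 and -1.19 ± 0.21 in TgCPEB4∆4 mice (adjusted p = 0.00629 and 0.00675) and -1.65 ± 0.50 and -2.16 ± 0.56 in CTRL mice (adjusted p = 0.000641 and 0.00045). The SDs of these genes overlap, so their order among themselves is not resolved.

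**Figure D2:**
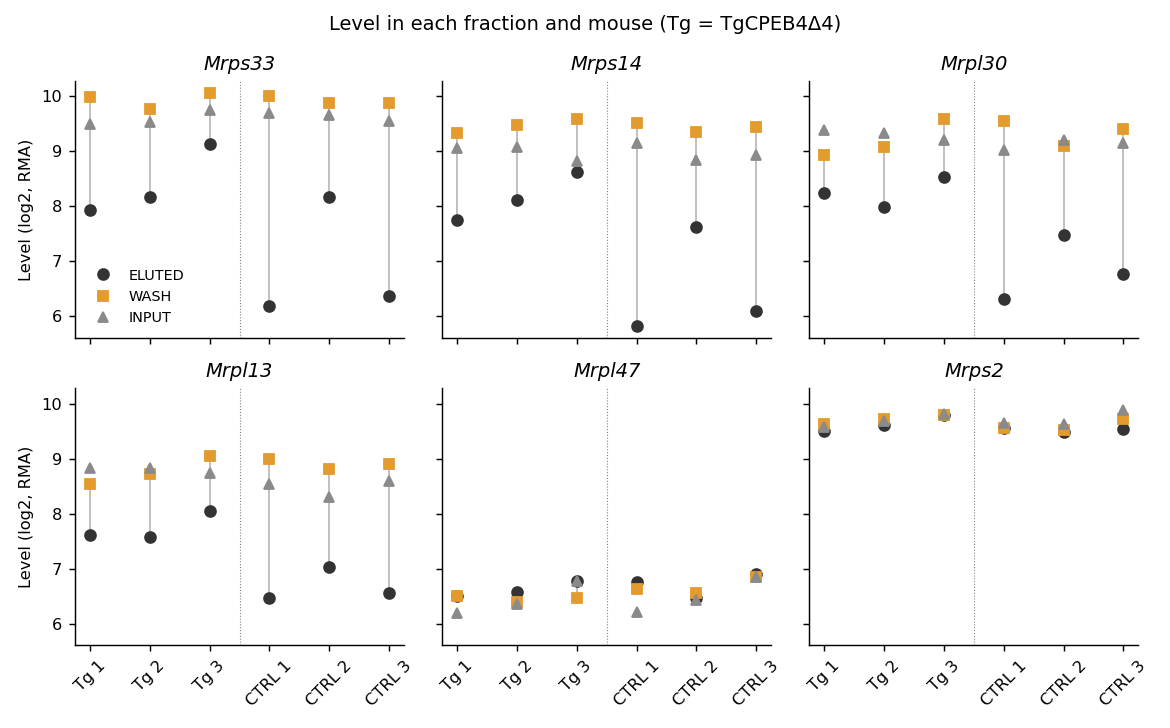
Log2 level of 6 genes in the ELUTED (circles), WASH (squares) and INPUT (triangles) arrays of each mouse, with TgCPEB4∆4 mice (Tg) left of CTRL mice and a line joining ELUTED and WASH of a mouse. In Mrps33, Mrps14, Mrpl30 and Mrpl13 the circles lie below the squares in every mouse, and in Mrpl47 and Mrps2, by the representative probe sets plotted, the tail ratio stays between -0.17 and 0.30.

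At the other end, 10 of the 73 genes did not pass in CTRL mice: Mrps2, Mrpl3, Mrps7, Mrps9, Mrpl10, Mrps11, Mrpl15, Mrps36, Mrpl47 and Mrpl54. Mrpl47, counterpart of bacterial uL29, had the highest tail ratios, 0.00, 0.18 and 0.30 in TgCPEB4∆4 mice (adjusted p = 0.328) and 0.12, -0.08 and 0.05 in CTRL mice (adjusted p = 0.844). Its probe set had a mean INPUT value of 6.47 over the 6 mice. Mrps2, counterpart of bacterial uS2, gave a tail ratio near 0 by its representative, which had a much higher signal. It read 9.50, 9.62 and 9.80 in ELUTED and 9.63, 9.72 and 9.79 in WASH of TgCPEB4∆4 mice, and 9.55, 9.48 and 9.54 in ELUTED and 9.55, 9.51 and 9.72 in WASH of CTRL mice. Its tail ratio was -0.08 ± 0.07 and -0.07 ± 0.09 (adjusted p = 0.621 and 0.632). The second probe set of Mrps2, of mean level 7.82, had -0.64 ± 0.45 in TgCPEB4∆4 mice (adjusted p = 0.068) and was lower in CTRL mice, at -1.20 ± 0.57 (adjusted p = 0.0033). Mrps9, counterpart of bacterial uS9, had -0.02 ± 0.07 in TgCPEB4∆4 and -0.15 ± 0.21 in CTRL mice (adjusted p = 0.933 and 0.338). Its second probe set, of mean level 6.45, was lower in both, at -1.03 ± 0.40 and -0.89 ± 0.20 (adjusted p = 0.0061 and 0.0030), and the remaining probe set passed in neither. Mrps11, counterpart of bacterial uS11, had 0.23, 0.19 and -0.36 in TgCPEB4∆4 mice (adjusted p = 0.917) and -0.30, -0.28 and -0.51 in CTRL mice (adjusted p = 0.0625). Mrpl54, found only in mitochondria, had -0.19 ± 0.42 and -0.05 ± 0.12 (adjusted p = 0.40 and 0.819). The second probe set of Mrpl54, of mean level 6.33, had 0.23 ± 0.17 in TgCPEB4∆4 mice (adjusted p = 0.210 in limma). It was higher in CTRL mice, at 0.52 ± 0.19 (adjusted p = 0.0104 in limma). Whether Mrps2, Mrpl3, Mrps9 and Mrpl54 pass in CTRL mice thus depends on the probe set. Under the repeated quantile normalization and under median centring the sign of several of these values turned (Mrps2 and Mrps9 in both genotypes, Mrpl54 in CTRL mice), so for them no direction is given.

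By place in the ribosome, large subunit proteins were lower in ELUTED in 30 of 48 genes in TgCPEB4∆4 mice (median -0.69) and in 43 of 48 in CTRL mice (median -1.30). Small subunit proteins were lower in 15 of 24 in TgCPEB4∆4 mice (median -0.74) and in 20 of 24 in CTRL mice (median -1.14). Among large subunit proteins, those found only in mitochondria had a median of -0.70 in TgCPEB4∆4 mice (12 of 19 lower) and -1.69 in CTRL mice (18 of 19 lower), and those with a bacterial counterpart -0.68 (18 of 29) and -1.24 (25 of 29). Small subunit proteins found only in mitochondria had -0.74 (8 of 10) and -0.94 (10 of 10), and those with a bacterial counterpart -0.73 (7 of 14) and -1.25 (10 of 14). Of all genes, 20.5% were lower in TgCPEB4∆4 mice and 39.9% in CTRL mice. The differences between these groups of members were not tested.

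**Figure D3:**
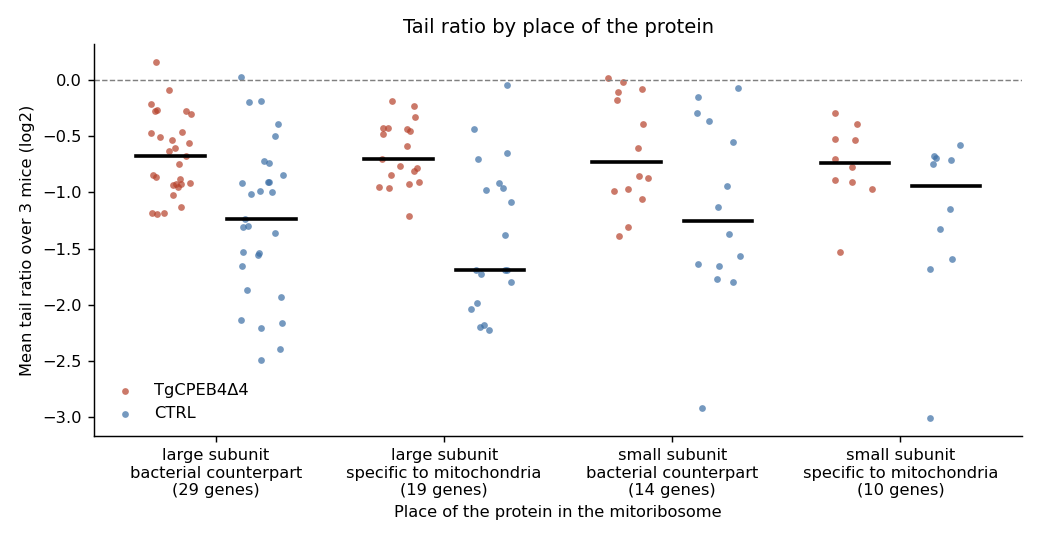
Mean tail ratio over 3 mice of each gene by the place of its protein in the mitoribosome, with TgCPEB4∆4 left of CTRL and a bar at the median. The medians of the 4 groups lie between -0.74 and -0.68 in TgCPEB4∆4 mice and between -1.69 and -0.94 in CTRL mice.

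The stalk proteins Mrpl12 and Mrpl11 passed in both genotypes, and Mrpl10 in neither. Mrpl12, which forms the stalk and in mammals also binds the mitochondrial RNA polymerase, had tail ratios of -0.86, -0.82 and -0.87 in TgCPEB4∆4 mice (adjusted p = 0.00443) and -1.25, -1.42 and -1.40 in CTRL mice (adjusted p = 0.00045). The mice of a genotype lay close together, and the genotypes did not overlap. Mrpl11, its neighbour at the base of the stalk, had -1.18 ± 0.31 (adjusted p = 0.00551) and -1.93 ± 0.42 (adjusted p = 0.00045). Mrpl10, which anchors Mrpl12, had -0.28 ± 0.06 (adjusted p = 0.0966) and -0.19 ± 0.05 (adjusted p = 0.175). Mrps12, part of the decoding centre, had -1.06 ± 0.34 in TgCPEB4∆4 mice (adjusted p = 0.00923) and -1.66 ± 0.50 in CTRL mice (adjusted p = 0.000668).

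Of the human disease genes, Mrps16 had -0.99 ± 0.07 in TgCPEB4∆4 mice and -1.13 ± 0.36 in CTRL mice (adjusted p = 0.00537 and 0.000866). Mrps22 had -0.97 ± 0.24 and -1.59 ± 0.33 (adjusted p = 0.00621 and 0.00048), and Mrps34 had -0.91 ± 0.06 and -0.74 ± 0.29 (adjusted p = 0.00537 and 0.00283). Mrps34 was thus 1 of the 7 genes whose mean was lower in TgCPEB4∆4 than in CTRL mice. Mrpl44, which resembles ribonuclease III, had -0.33 ± 0.13 in TgCPEB4∆4 mice (adjusted p = 0.136) and -0.70 ± 0.36 in CTRL mice (adjusted p = 0.00582), and its other tested probe set passed in both (-1.51 and -1.91). Mrpl3, of the peptidyl transferase region, passed in neither by its representative (-0.22 ± 0.12 and -0.39 ± 0.40, adjusted p = 0.324 and 0.0653). Its other tested probe set was lower in both, at -1.17 ± 0.42 and -1.69 ± 1.04 (adjusted p = 0.0327 and 0.00358). Mrps18a and Mrps18b are related to the same bacterial protein, although both are grouped here with the proteins of mitochondria, and Mrps18a sits in the large subunit. Mrps18a had -0.91 ± 0.27 and -1.73 ± 0.65 (adjusted p = 0.0212 and 0.000792), and Mrps18b -0.53 ± 0.10 and -1.14 ± 0.43 (adjusted p = 0.0448 and 0.00111). Mrps30, found in the large subunit despite its name, had -0.76 ± 0.24 and -0.98 ± 0.17 (adjusted p = 0.00812 and 0.00102). Mrps36, outside the ribosome, passed in neither genotype (-0.14 ± 0.21 and -0.24 ± 0.20, adjusted p = 0.459 and 0.160). Mrpl45 and Mrps18c were not analysed here.

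Between genotypes, no member's tail ratio differed after adjustment. With limma, 0 of 73 genes passed (0% of all genes), the smallest adjusted p of a member being 0.371. At unadjusted p under 0.05, 30 of 73 genes (41.1%) were higher in TgCPEB4∆4 mice and 0 lower, where 10.9% of all genes were higher. In 66 of 73 genes the mean tail ratio was higher in TgCPEB4∆4 mice, with a median difference of 0.46 beside 0.02 over all genes. In 25 of 73 genes every TgCPEB4∆4 mouse lay above every CTRL mouse, and in 0 below, where 11.9% of all genes had every TgCPEB4∆4 mouse above. The outcome depended on CTRL mouse 2, which lay next to the TgCPEB4∆4 mice, so that leaving it out was bound to widen the difference. Without it 28 of 73 genes passed, all higher in TgCPEB4∆4 mice, where 9.18% of all genes were higher by the same fit. The median difference was 0.66. This fit leaves CTRL mice 1 and 3, on whose ELUTED arrays only 65 and 71 of the 73 members were above the bacterial and tag controls. It therefore does not decide whether the genotypes differ. The smallest unadjusted p values belonged to Mrpl13 (difference 1.19 ± 0.23, SE, unadjusted p = 0.000685), Mrpl52, found only in mitochondria (1.39 ± 0.28, unadjusted p = 0.00106), Mrpl30 (1.54 ± 0.38, unadjusted p = 0.00314) and Mrpl42, also found only in mitochondria (1.34 ± 0.33, unadjusted p = 0.00364). Mrpl21, with a bacterial counterpart, and Mrpl41, without one, followed at 0.88 ± 0.24 (unadjusted p = 0.00563) and 1.02 ± 0.28 (unadjusted p = 0.00573). Each of these 6 genes had an adjusted p of 0.371. By the other tested probe sets the difference was -0.06 for Mrpl30 and 0.01 for Mrpl21. It was 1.21 and 0.83 for Mrpl13, 1.135, 0.93 and 0.18 for Mrpl52, and 1.38 and -0.16 for Mrpl41. The difference thus depends on the probe set, except in Mrpl13, where all were above 0.8, and in Mrpl42, with no other tested. On the other side, Mrps34 (-0.16 ± 0.20), Mrpl54 (-0.14 ± 0.24), Mrps31 (-0.12 ± 0.19), Mrpl15 (-0.11 ± 0.21), Mrpl10 (-0.09 ± 0.16) and Mrps2 (-0.01 ± 0.17) had unadjusted p of 0.432 to 0.946.

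The spread of all mRNAs between the fractions varied from mouse to mouse. The SD of the tail ratio over all tested probe sets was 0.614, 0.621 and 0.388 in TgCPEB4∆4 mice 1, 2 and 3, and 1.19, 0.593 and 0.859 in CTRL mice 1, 2 and 3. The genotypes overlapped, and their difference in spread was not tested. CTRL mouse 2, whose members lay nearest 0, also had the narrowest spread of the CTRL mice. After each mouse's tail ratios were rescaled to the same SD, the member medians were -0.84, -0.80 and -1.17 in TgCPEB4∆4 mice and -0.87, -0.90 and -1.17 in CTRL mice. The rescaled values overlapped between genotypes. The median difference was then 0.11, with 46 of 73 genes higher in TgCPEB4∆4 mice. With limma 0 of 73 passed (0.00% of all genes), and 12 had an unadjusted p under 0.05. The shares of all genes above 0 and at that unadjusted threshold were not computed after rescaling, so 46 and 12 have no background beside them. Whether the separation on the column, the amplification or the tails themselves differed between these mice cannot be told apart in this design. Across the 73 genes the mean tail ratios of the genotypes correlated at Pearson r = 0.795 and Spearman rho = 0.766, and across all 11974 genes at 0.863 and 0.881. Genes are not independent replicates, and the values of a genotype share arrays.

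**Figure D4:**
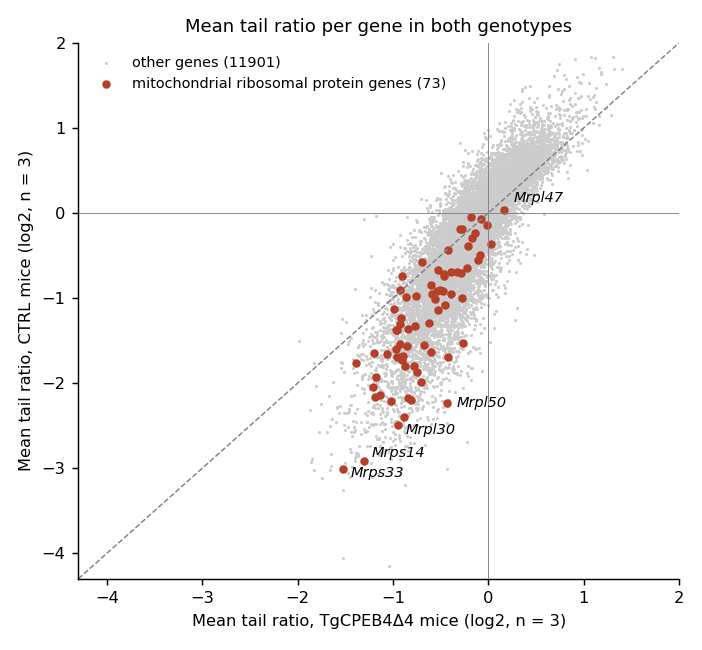
Mean tail ratio of each gene in TgCPEB4∆4 mice (x axis, log2, n = 3) and in CTRL mice (y axis, log2, n = 3), with the 73 mitochondrial ribosomal protein genes in red over the other genes in grey and a dashed line of equality. The members lie mostly left of and below 0, and 66 of 73 lie below the line, where the value is lower in CTRL mice.

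The larger genotype differences were in ELUTED. In ELUTED the median over members was 8.10, 8.32 and 8.79 in TgCPEB4∆4 mice and 7.67, 8.07 and 7.61 in CTRL mice, so that every TgCPEB4∆4 mouse lay above every CTRL mouse. The median of all genes did not overlap either, at 7.95, 7.91 and 8.07 in TgCPEB4∆4 and 7.69, 7.83 and 7.80 in CTRL mice. Of 73 genes 67 had a higher mean in TgCPEB4∆4 mice, with a median difference of 0.50 beside 0.08 over all genes. After adjustment 0 of 73 passed with limma (0% of all genes), and 36 of 73 (49.3%) were higher at unadjusted p under 0.05, where 15.4% of all genes were. In 37 genes every TgCPEB4∆4 mouse lay above every CTRL mouse, where 18.2% of all genes did. Without CTRL mouse 2, again the CTRL mouse nearest the TgCPEB4∆4 mice, 21 of 73 passed, where 9.50% of all genes were higher by the same fit. Mrpl13 read 7.61, 7.57 and 8.05 in ELUTED of TgCPEB4∆4 mice and 6.47, 7.04 and 6.56 in ELUTED of CTRL mice (difference 1.05 ± 0.22, SE, unadjusted p = 0.00157). Mrpl41 read 9.54, 9.25 and 9.77 in TgCPEB4∆4 and 8.15, 8.88 and 8.23 in CTRL mice (1.10 ± 0.25, unadjusted p = 0.00214). Mrpl30 differed by 1.39 ± 0.30 (unadjusted p = 0.00184), and all 3 had an adjusted p of 0.278. By the other tested probe sets the difference in ELUTED was 1.18 and 0.91 for Mrpl13, 1.39 and -0.21 for Mrpl41, and -0.35 for Mrpl30. For Mrpl41 and Mrpl30 its sign thus depends on the probe set. The lowest differences in ELUTED were those of Mrpl54 (-0.20 ± 0.21), Mrpl15 (-0.16 ± 0.20) and Mrps31 (-0.13 ± 0.20), with unadjusted p of 0.369 to 0.536.

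In WASH the genotypes were close. The member median was 8.91, 9.08 and 9.46 in TgCPEB4∆4 mice and 9.26, 9.0 and 9.11 in CTRL mice, and the ranges overlapped. The median difference was 0.03 with 38 of 73 genes above 0, and the repeated quantile normalization turned it to -0.04 with 22 of 73. With limma 0 of 73 genes passed (0% of all genes), and 2 were higher at unadjusted p under 0.05, where 11.3% of all genes were. In 3 genes every TgCPEB4∆4 mouse lay above every CTRL mouse, where 16.1% of all genes did. Mrpl10 read 9.27, 9.28 and 9.39 in TgCPEB4∆4 and 9.06, 9.0 and 9.07 in CTRL mice (difference 0.27 ± 0.09, unadjusted p = 0.0137, adjusted p = 0.214). Mrps18b followed at 0.21 ± 0.09 (unadjusted p = 0.0469) and Mrpl2, of the peptidyl transferase region, at 0.22 ± 0.11 (unadjusted p = 0.0800). The smallest p below 0 belonged to Mrpl47 (-0.23 ± 0.10, unadjusted p = 0.0597), Mrps7 (-0.18 ± 0.11, unadjusted p = 0.133) and Mrpl48 (-0.14 ± 0.09, unadjusted p = 0.176).

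In INPUT, the total RNA, the members differed little. Their median was 8.89, 9.07 and 8.96 in TgCPEB4∆4 mice and 8.83, 8.83 and 8.86 in CTRL mice. The TgCPEB4∆4 mice lay just above the CTRL mice, as did the median of all genes, at 8.07, 8.05 and 8.02 in TgCPEB4∆4 and 7.98, 7.96 and 7.93 in CTRL mice. The median difference over genes was 0.08, with 52 of 73 genes above 0. Median centring of the arrays brought it to 0.03 with 38 of 73 above 0, and a repeated quantile normalization to 0.01 with 39 of 73. With limma 0 of 73 passed (0% of all genes), and 7 (9.59%) were higher at unadjusted p under 0.05, where 8.19% of all genes were. In 13 genes every TgCPEB4∆4 mouse lay above every CTRL mouse, where 13.2% of all genes did. The members' share of low p values was thus close to that of all genes. The smallest p belonged to Mrpl13 (8.83, 8.84 and 8.74 in TgCPEB4∆4 and 8.54, 8.30 and 8.59 in CTRL mice, difference 0.32 ± 0.11, unadjusted p = 0.0200, adjusted p = 0.430). Mrpl23, counterpart of a bacterial protein at the exit of the peptide tunnel, had 0.35 ± 0.13 (unadjusted p = 0.0282) and Mrps34 0.25 ± 0.10 (unadjusted p = 0.0374). Mrps21 (-0.19 ± 0.11), Mrps12 (-0.22 ± 0.15) and Mrps36 (-0.11 ± 0.10) were lower in TgCPEB4∆4 mice at unadjusted p of 0.130 to 0.340.

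Set against total RNA, the long-tail fraction of CTRL mice held less of most of these mRNAs. ELUTED minus INPUT had a member median of -0.67, -0.58 and -0.19 in TgCPEB4∆4 mice and -1.04, -0.65 and -1.05 in CTRL mice. In CTRL mice 50 of 73 genes were lower in ELUTED and 0 higher, where 15.6% of all genes were lower. In TgCPEB4∆4 mice 0 of 73 passed with limma, where 0.225% of all genes did, although 37 of 73 were lower at unadjusted p under 0.05, where 10.4% of all genes were. Leaving out CTRL mouse 3 lowered the count in CTRL mice to 14 (2.26% of all genes), and leaving out CTRL mouse 1 raised that in TgCPEB4∆4 mice to 27 (6.39% of all genes). Fitting each genotype on its own 3 mice gave 37 in TgCPEB4∆4 and 23 in CTRL mice (8.64% and 3.50% of all genes), so both counts depend on the spread shared between genotypes.

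WASH minus INPUT had a member median of 0.06, 0.15 and 0.41 in TgCPEB4∆4 mice and 0.30, 0.15 and 0.29 in CTRL mice. In TgCPEB4∆4 mice 28 of 73 genes were higher in WASH and 1, Mrpl1, lower, where 35.5% of all genes were higher and 11.9% lower. In CTRL mice 35 of 73 (47.9%) were higher and 0 lower, where 36.3% of all genes were higher and 12.5% lower. The members' share of higher genes in TgCPEB4∆4 mice, 38.4%, was thus close to that of all genes. With the repeated quantile normalization the split was 12 higher and 6 lower in TgCPEB4∆4 mice (22.4% and 13.7% of all genes) and 15 and 4 in CTRL mice (24.6% and 15.5%). Median centring gave 13 and 7 in TgCPEB4∆4 mice (20.2% and 22.4% of all genes) and 21 and 4 in CTRL mice (23.7% and 22.3%). Without CTRL mouse 1 or CTRL mouse 3 the count in CTRL mice was 23 or 21 (28.9% or 24.1% of all genes higher, 9.30% or 7.48% lower). Without TgCPEB4∆4 mouse 3 the split in TgCPEB4∆4 mice was 17 higher and 7 lower (27.2% and 9.72% of all genes). The representative probe set of Mrps24 read 8.50, 9.03 and 9.16 in WASH and 7.38, 7.59 and 7.80 in INPUT of TgCPEB4∆4 mice, a difference of 1.31, and 8.77, 8.78 and 8.95 in WASH and 7.57, 7.58 and 7.50 in INPUT of CTRL mice, a difference of 1.28. Its second probe set, of almost the same mean level, differed by 0.31 in TgCPEB4∆4 (adjusted p = 0.0232) and 0.47 in CTRL mice (adjusted p = 0.0025), so the size depends on the probe set.

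The level of a member in total RNA differed widely between probe sets, which cannot be ranked as amounts of mRNA because probe sets bind with different strength. The highest mean INPUT values over the 6 mice were those of Mrpl42 (10.9), Mrpl41 (10.4) and Mrpl48 (10.3), and the lowest those of Mrpl47 (6.47), Mrpl15 (6.48) and Mrpl37 (6.92). Mrpl47, Mrpl15 and Mrpl37, with Mrps30 and Mrps31, exceeded the GC controls on no INPUT array. All 3 genes of highest signal passed in CTRL mice, with tail ratios of -2.60, -1.34 and -2.60 for Mrpl42, -2.17, -1.17 and -2.05 for Mrpl41, and -1.39, -0.40 and -1.47 for Mrpl48. Across the 73 genes the CTRL tail ratio correlated with mean INPUT at Pearson r = -0.447 and Spearman rho = -0.438, and the TgCPEB4∆4 tail ratio at -0.200 and -0.106. These correlations are across genes on shared arrays and are a description.

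Probe sets of the same gene did not always agree. Of the 118 member probe sets that were tested, 64 were lower in ELUTED in TgCPEB4∆4 mice and 2 higher, where 19.1% of all 27022 tested probe sets were lower and 12.7% higher. In CTRL mice 89 were lower and 6 higher, where 35.4% of all were lower and 27.6% higher. Of the 30 genes with 2 or more tested probe sets, 18 had a probe set called otherwise than the representative in TgCPEB4∆4 mice and 17 in CTRL mice. In 6 genes a probe set that was higher in CTRL mice stood beside a representative with a negative tail ratio: Mrpl1, Mrpl19, Mrpl21, Mrpl38, Mrpl41 and Mrpl54. In Mrpl21 the representative had -0.56, -0.75 and -0.73 in TgCPEB4∆4 and -1.84, -1.06 and -1.76 in CTRL mice. Its second probe set had 0.60, 1.01 and 0.49 in TgCPEB4∆4 (adjusted p = 0.0101) and 0.72, 0.59 and 0.77 in CTRL mice (adjusted p = 0.00369). No mouse overlapped between the probe sets, and the sign of the tail ratio of Mrpl21 depends on which one is read. Mrpl19, counterpart of bacterial bL19, had 4 probe sets with CTRL means of -0.91, 0.76, -0.22 and -1.98. Mrpl1, with a counterpart in the bacterial L1 stalk, had a representative at -0.09 ± 0.24 in TgCPEB4∆4 and -0.49 ± 0.48 in CTRL mice and a second probe set at 0.72 ± 0.06 and 0.66 ± 0.09. For Mrpl1, Mrpl38 and Mrpl54 the mean over all probe sets of the gene turned the CTRL tail ratio positive (0.08, 0.11 and 0.23). By contrast, the 3 probe sets of Mrpl13 were all low, at -1.02, -2.02 and -1.46 in TgCPEB4∆4 and -2.21, -3.22 and -2.29 in CTRL mice. Which transcript end or isoform each probe set reads was not analysed here. The mean over all probe sets of each gene left the overall counts at 42 of 73 in TgCPEB4∆4 and 65 of 73 in CTRL mice. Of all genes, 23.7% were then lower and 7.13% higher in TgCPEB4∆4 mice, and 40.3% lower and 21.0% higher in CTRL mice.

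**Figure D5:**
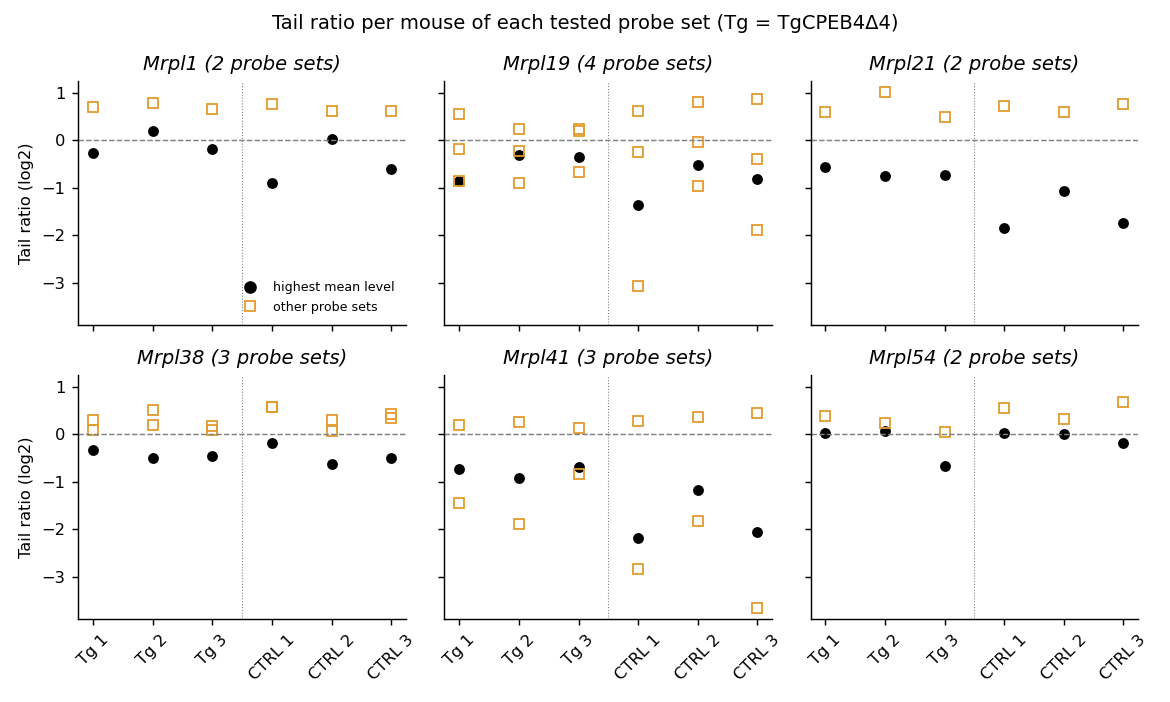
Tail ratio (log2) per mouse of every tested probe set of 6 genes, with TgCPEB4∆4 mice (Tg) left of CTRL mice, the probe set of highest mean level as a filled circle and the others as open squares. In Mrpl21 the second probe set lies between 0.49 and 1.01 in all 6 mice, above 0, while the representative lies below 0 in all 6.

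Other genes of mitochondrial translation had medians closer to 0 than the members. For the counts below, 20.5% of all genes were lower and 6.50% higher in TgCPEB4∆4 mice, and 39.9% lower and 20.5% higher in CTRL mice. Among 5 mitoribosome proteins named otherwise, 2 were lower in ELUTED in TgCPEB4∆4 mice and 3 in CTRL mice, with medians of -0.27 and -0.78. Of 9 mitochondrial translation factors, 5 and 6 were lower, with medians of -0.49 and -0.48. Of 21 factors that assemble the mitoribosome or modify its RNA, 10 were lower and 2 higher in TgCPEB4∆4 mice, and 14 lower and 2 higher in CTRL mice (medians -0.36 and -0.58). The 16 mitochondrial aminoacyl-tRNA synthetases, enzymes that charge tRNAs, had 4 lower and 2 higher in TgCPEB4∆4 mice and 6 lower and 4 higher in CTRL mice. Their medians (-0.17 and -0.16) and their shares of lower genes (25% and 37.5%) were close to those of all genes. Cytosolic ribosomal protein genes, the counterpart in the cytosol, were lower in 36 of 69 in TgCPEB4∆4 mice and in 67 of 69 in CTRL mice, with medians of -0.69 and -1.65. Nuclear genes of the respiratory chain and ATP synthase, whose products assemble with those of the mitoribosome, were lower in 46 of 78 and 71 of 78, with medians of -0.74 and -1.85. In TgCPEB4∆4 mice the median of the mitochondrial ribosomal protein genes was thus near that of both groups, and in CTRL mice it was nearer 0 than either. Median INPUT per mouse also differed between lists, at 8.8 to 9.1 for the members and 8.9 to 9.2 for the mitoribosome proteins named otherwise. It was 7.3 to 7.5 for translation factors, 7.5 to 7.7 for assembly and RNA factors and 7.6 to 7.9 for the synthetases. Cytosolic ribosomal protein genes had 10.7 to 11.2 and respiratory chain genes 10.6 to 10.9. The differences between lists and the part of signal level in them were not tested.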

How the data were processed

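RNA of 6 mice (3 TgCPEB4∆4, 3 CTRL) was measured on 18 single-colour Affymetrix arrays, as INPUT, WASH and ELUTED of each mouse. Per the labels' protocols, 5 ng of RNA was amplified for 21 cycles and 8 µg of cDNA was labelled. The authors deposited log2 values made by RMA, per the submitters' processing notes; no source used here gives its version. RMA scales arrays toward a common distribution, so a change of total mRNA cannot be seen. The deposited distributions were not identical, with array medians of 6.42 to 6.59 and SDs of 1.70 to 2.00. The series names one array design and the probe sets match the annotation of another, which was used for gene names. Of 45141 probe sets, 28898 had 1 gene, 551 several and 15588 none, the 104 controls included in the total, and 6 that list several genes with a member were left out. Each mouse has 1 array per fraction, and the number of mice limits precision.

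Probe sets with a mean over 18 arrays above the 40th percentile (log2 5.95) were tested, 27022 in all, 118 of the 129 member probe sets among them. R 4.3.3 and limma 3.58.1 (lmFit, eBayes) were used with Benjamini-Hochberg adjustment over all of them, two-sided. ELUTED minus WASH, ELUTED minus INPUT and WASH minus INPUT were taken within a mouse, since the labels give its 3 fractions 1 number, and both genotypes shared 1 estimate of the spread. Same-mouse deviations of ELUTED and WASH correlated at 0.716, 0.333 and 0.427 in TgCPEB4∆4 mice and at -0.066, 0.162 and -0.025 in CTRL mice. The scripts were tested on simulated data. Named were the 6 lowest and 4 highest tail ratios of each genotype, the 6 smallest p of each sign for the tail ratio difference and the 3 smallest for each fraction, 13 genes by role, genes with an opposite probe set, and the 3 highest and 3 lowest INPUT values. Members and lists were chosen with earlier results of these data known. Alternatives were other filters, normalizations, probe set summaries, spread models, blocks, a rescaling of each mouse and leaving out each mouse. The GC controls were added after seeing the data.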

Additional observations from a re-analysis of the deposited data

How the results depend on the processing

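Of the member counts recomputed under an alternative, 123 stayed within 1.5 times the reported count, 10 fell below and 6 exceeded it. The 123 include pairs in which both counts were 0, as in most settings of the 4 genotype differences. The number thus says little about the counts above 0. Repeated quantile normalization gave 23 genes for the TgCPEB4∆4 tail ratio, 18 for WASH against INPUT in TgCPEB4∆4 mice and 19 in CTRL mice. Fits on 1 genotype gave 37 genes for ELUTED against INPUT in TgCPEB4∆4 mice and 23 in CTRL mice. Leaving out 1 mouse gave 0 to 53 genes for the TgCPEB4∆4 tail ratio and 60 to 63 for the CTRL tail ratio (0.00% to 33.7% and 33.4% to 38.8% of all genes lower). It gave 0 to 28 for the genotype difference of the tail ratio and 0 to 21 for that in ELUTED (0.00% to 9.18% and 0.00% to 9.50% of all genes higher). ELUTED against INPUT gave 0 to 27 in TgCPEB4∆4 and 14 to 49 in CTRL mice (0.0251% to 6.39% and 2.26% to 19.8% of all genes lower). WASH against INPUT gave 23 to 34 and 21 to 39 in either direction. Of all genes, 26.4% to 35.0% and 24.1% to 37.6% were then higher, and 7.47% to 11.6% and 7.48% to 13.2% lower. With the replicate number as a block, 0 genes passed for each of the 4 genotype differences (0.00% of all genes). At unadjusted p under 0.05 in limma, 32, 4, 1 and 32 members did for the tail ratio, INPUT, WASH and ELUTED, and all genes were not counted. Same-numbered mice of different genotypes correlated at -0.199 to 0.258, and those of different numbers at -0.363 to 0.334. With 3 mice per genotype these values do not decide whether a number marks something the genotypes share. With no replicate block within the mouse, the pairing being ignored, ELUTED against INPUT gave 7 genes in TgCPEB4∆4 and 52 in CTRL mice (1.24% and 16.9% of all genes lower). WASH against INPUT gave 20 and 23 in either direction (21.7% and 23.5% of all genes higher, 7.17% and 7.67% lower). The tail ratio gave 43 and 62 (17.1% and 38.1% of all genes lower). Signs turned for values near 0 in these genes, and the cause was not tested. In TgCPEB4∆4 mice the quantile normalization turned the tail ratio of Mrps9 to 0.13, Mrps2 to 0.18, Mrpl10 to 0.0043, Mrpl3 to 0.046 and Mrps36 to 0.13, and median centring turned Mrps9 to 0.16, Mrps2 to 0.10 and Mrps36 to 0.041. In CTRL mice the quantile normalization turned Mrpl47 to -0.056, Mrpl54 to 0.14, Mrps2 to 0.34 (adjusted p = 0.0487 in limma), Mrps9 to 0.019, Mrpl10 to 0.22, Mrpl3 to 0.019 and Mrps36 to 0.17, and centring turned Mrpl54 to 0.14, Mrps2 to 0.12, Mrps9 to 0.045 and Mrpl10 to 0.0011. The mean of all probe sets turned the CTRL tail ratio of Mrpl54 to 0.23, Mrpl1 to 0.083 and Mrpl38 to 0.11, and the genotype difference of Mrps2 to 0.27. Rescaling turned Mrps11 in TgCPEB4∆4 mice to -0.055. Over the fits that left out 1 mouse, the tail ratio of Mrps11 lay between -0.084 and 0.21 and that of Mrps9 between -0.051 and 0.018 in TgCPEB4∆4 mice, and that of Mrpl47 between -0.018 and 0.086 and of Mrpl54 between -0.089 and 0.025 in CTRL mice. The genotype difference of the tail ratio lay between -0.21 and 0.014 for Mrps31, -0.27 and 0.10 for Mrpl54, -0.26 and 0.047 for Mrpl15 and -0.064 and 0.022 for Mrps2, and that in ELUTED between -0.21 and 0.023 for Mrps31.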
